A study of Mus musculus with 17 samples.

Results

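Th2 cells of wild type OTII mice were compared between the lung-draining lymph node, where they had formed in the animal, and a Th2 culture, where they had formed in a dish. OTII mice carry a transgenic T cell receptor for a peptide of ovalbumin. The lymph node group held 3 libraries of FACS-sorted Th2 cells from the mediastinal node of OTII mice with an allergen-driven airway inflammation, and the sample names inside the deposited tables add OVA-HDM to them. The culture group held 2 libraries of cells that began as naive spleen T cells of OTII mice and were kept 7 days on plates coated with anti-CD3 and anti-CD28, with IL-4 added and IFN-γ and IL-12/23 blocked by antibodies. These 5 libraries, of 17 in the series, share the OTII background and the label WT. The labels give no age, sex or strain. They do not name the markers by which the OTII Th2 cells were sorted, nor say whether a replicate is 1 animal or a pool. All 24537 genes listed in the tables were considered, and the 11040 with at least 1 RPKM in 2 or more of the 5 libraries are described. RPKM is a read count divided by the length of the transcript and by the size of the library. All levels below are RPKM after scaling between libraries.

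Th2 cells are CD4 T cells that make IL-4, IL-5 and IL-13 under the transcription factor GATA3 and drive allergic inflammation. In a lymph node they are primed by dendritic cells, keep meeting antigen and can share features with follicular helper cells, the CD4 T cells that enter B cell follicles and help antibody responses. In a Th2 culture, plate-bound antibodies, IL-4 and the IL-2 that the cells make replace those signals. IL-2 and IL-4 act through the STAT5 and STAT6 proteins.

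The libraries held 18.9 to 22.7 M reads in the lymph node group and 21.0 and 21.4 M reads in culture (M, mega). Across genes, which do not count as replicates, log2 values correlated at r = 0.989 to 0.992 between lymph node libraries and at r = 0.979 between the culture libraries. The table headers number the lymph node libraries WT1-1, WT2-1 and WT2-2, so libraries 2 and 3 may share a source. Node and culture differ at once in tissue of origin, antigen, cytokines, time and sorting, and the shares of these in a difference cannot be told apart. The series text calls the libraries biological replicates. Whether they came from separate animals is not stated, and if they did not, the p-values measure only a technical spread.

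Both groups carried the marks of CD4 T cells, and Gata3 was at a like level in both. Cd3e, a chain of the T cell receptor complex, stood at 291, 263 and 251 in the lymph node libraries and at 189.7 and 208 in the culture libraries. Cd4 stood at 386, 333 and 355 in the node and at 67.7 and 85.7 in culture. Gata3, which encodes the Th2 regulator, stood at 51.4, 59.9 and 49.3 in the node and at 52.9 and 66.0 in culture, with overlapping groups (log2 fold change -0.14, SE 0.14, adjusted p = 0.448). Tbx21, which encodes the Th1 regulator, was measurable in all 5 libraries at 24.98, 26.0 and 19.4 in the node and 15.9 and 18.5 in culture, and did not pass either. Foxp3, which marks regulatory T cells, was low in both, at 2.39, 2.48 and 2.43 in the node and 4.01 and 4.90 in culture.

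Most markers of other cells were low, and several differed between the groups. Of 12 B cell markers 6 were tested and 5 were higher in the node (3 of 5 without node library 1 or 3). Their summed level was 19.6 to 25.01 in the node libraries and 8.86 to 11.7 in culture. Cd22 stood at 3.57, 1.94 and 2.06 in the node and 0.0233 and 0.0799 in culture, and none of the 12 was listed at 0 in all node libraries. Cd74, the invariant chain of MHC class II, was at 58.2, 43.4 and 45.9 in the node and 2.87 and 3.77 in culture. Lyz2, a myeloid gene, was at 2.18, 1.63 and 1.79 in the node and listed at 0 in both culture libraries. Among the CD8 T and NK cell markers, Ncr1 was at 0 in both culture libraries and Cd8a at 1.07 and 0.793, while Klrd1 (0.242, 0.524 and 0.408 in the node, 7.27 and 2.29 in culture) was higher in culture. In RNA from many cells, fewer cells of a type and less RNA per cell cannot be told apart.

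**Figure D1:**
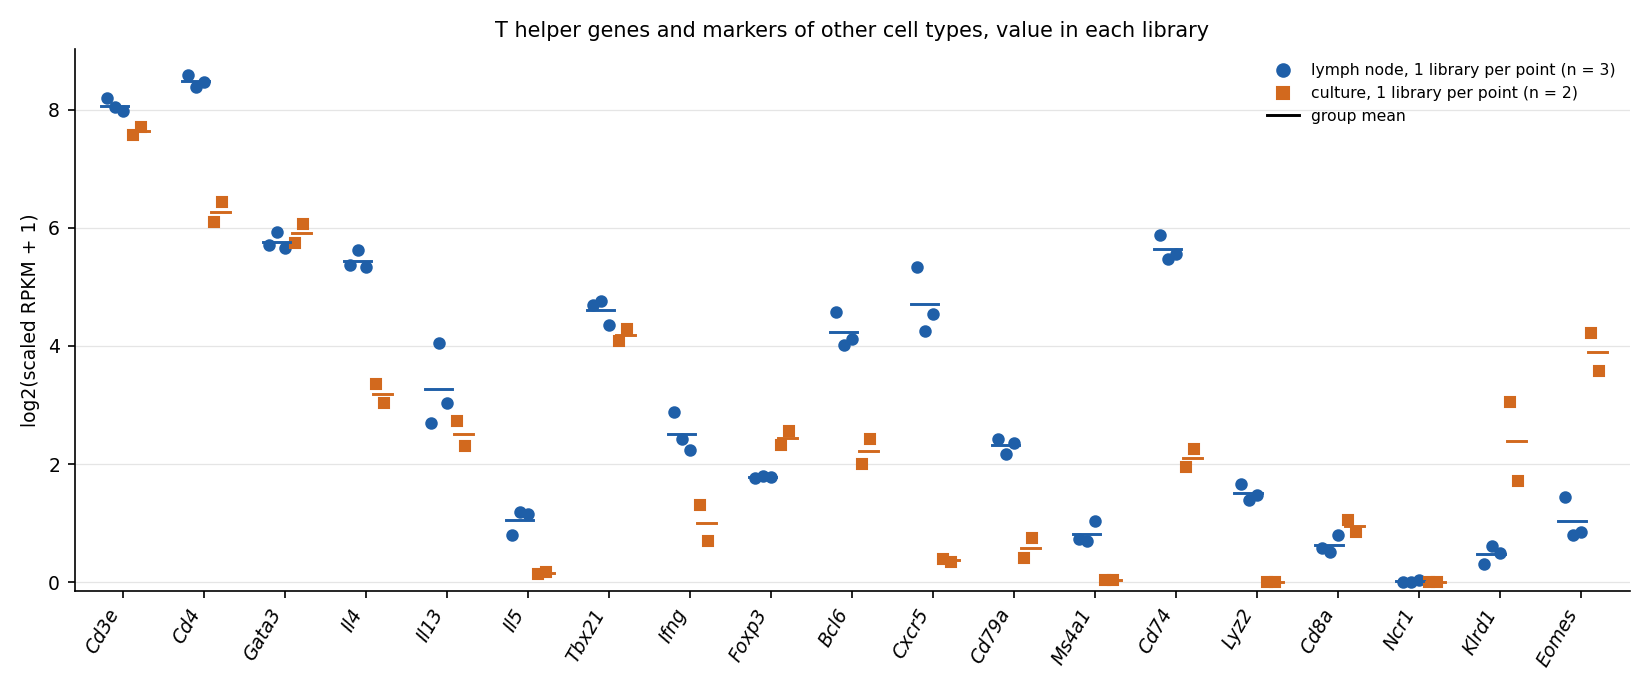
Level of T helper genes and of markers of other cell types in each library, as log2(scaled RPKM + 1). Blue circles are the 3 lymph node libraries, orange squares the 2 culture libraries and bars the group means. Gata3 overlaps between the groups, Il4 and Cxcr5 lie higher in the node, and Eomes and Klrd1 lie higher in culture.

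Of the 11040 genes, 3438 (31.1%) passed limma's test at an adjusted p under 0.05, with 1555 (14.1%) higher in the node and 1883 (17.1%) lower. Counts of gene groups below are read against these shares. A difference past 2-fold as well was found in 985 (8.92%), with 394 (3.57%) higher and 591 (5.35%) lower. The groups did not overlap in 57.8% of the genes, with the node higher in 28% and culture higher in 29.8%. Over all genes the median of the log2 fold changes was -0.02. Fold changes are on the scale of log2(scaled RPKM + 1), node minus culture, which understates the change of low genes. Of the genes tested, 228 reached the filter of 1 RPKM in node libraries alone and 343 in culture libraries alone, and 157 and 297 of these passed as higher and lower. Such genes entered the test through the group in which they were high. The number of genes higher in the node fell to 929, 894 and 944 without node library 1, 2 and 3 in turn.

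The genes with the largest excess in the node included follicular helper genes, the early activation gene Fos and the Notch target gene Dtx1. Izumo1r (chr9:14900023-14903951 on mm10) encodes the folate receptor FR4 that marks helper cells which have met antigen. It stood at 405, 338 and 337 in the node and 4.04 and 6.17 in culture, 70.5 times higher by the means (log2 fold change 5.90, SE 0.17, adjusted p = 7.59e-06). Fos (chr12:85473901-85477270), a subunit of the AP-1 factor, stood at 52.0, 115 and 116 in the node and 0.487 and 0.559 in culture, and node library 1 was the lowest of its group. Its log2 fold change was 5.88, SE 0.33, adjusted p = 3.57e-05. Dtx1 (chr5:120680264-120711669), a direct target of Notch, stood at 50.4, 37.3 and 37.6 in the node and 0.196 and 0.240 in culture (log2 fold change 5.12, SE 0.16, adjusted p = 9.13e-06). Next came Tox2 (4.84), Tnfsf11 (4.49), Cxcr5 (4.35), Synpo (4.18), Angptl2 (4.17), H2-Q2 (4.13) and Cd200 (4.05), given as log2 fold changes. H2-Q2 has near-identical neighbours among the MHC class I genes, so its reads may be split or shared. Fos, Dtx1, Tox2, Tnfsf11 and Cxcr5 were among the genes that reached 1 RPKM in node libraries alone.

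The genes with the largest excess in culture included granule protease genes and an interferon-inducible membrane gene. Ifitm1 (chr7:140967429-140969827), which encodes a membrane protein that interferons induce, stood at 472 and 358 in culture and 0.698, 5.10 and 4.64 in the node (log2 fold change -6.73, SE 0.51, adjusted p = 1.14e-04). Gzma (chr13:113093827-113100981), a protease of cytotoxic granules, stood at 3806 and 2056 in culture and 13.0, 40.6 and 40.3 in the node (log2 fold change -6.60, SE 0.48, adjusted p = 1.05e-04). Il24 (chr1:130882074-130887411), a cytokine of the IL-10 family, stood at 65.0 and 50.6 in culture, where 1490 and 1201 reads were counted, and the node libraries held 0, 4 and 0 reads. Cyp11a1 (chr9:58014952-58027031), which starts steroid synthesis from cholesterol, stood at 146 and 157 in culture and 2.75, 6.13 and 4.20 in the node. Log2 fold changes were -4.88 for Cyp11a1, -4.56 for Ecm1, -4.51 for the water channel gene Aqp9, -4.23 for the granzyme gene Gzmb and -4.13 for the receptor adaptor gene Trat1. Tnfrsf8, which encodes CD30, and the tetraspanin gene Tspan9 followed at -3.70 and -3.55. All 20 of these genes stayed called in each fit that left out 1 library.

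**Figure D2:**
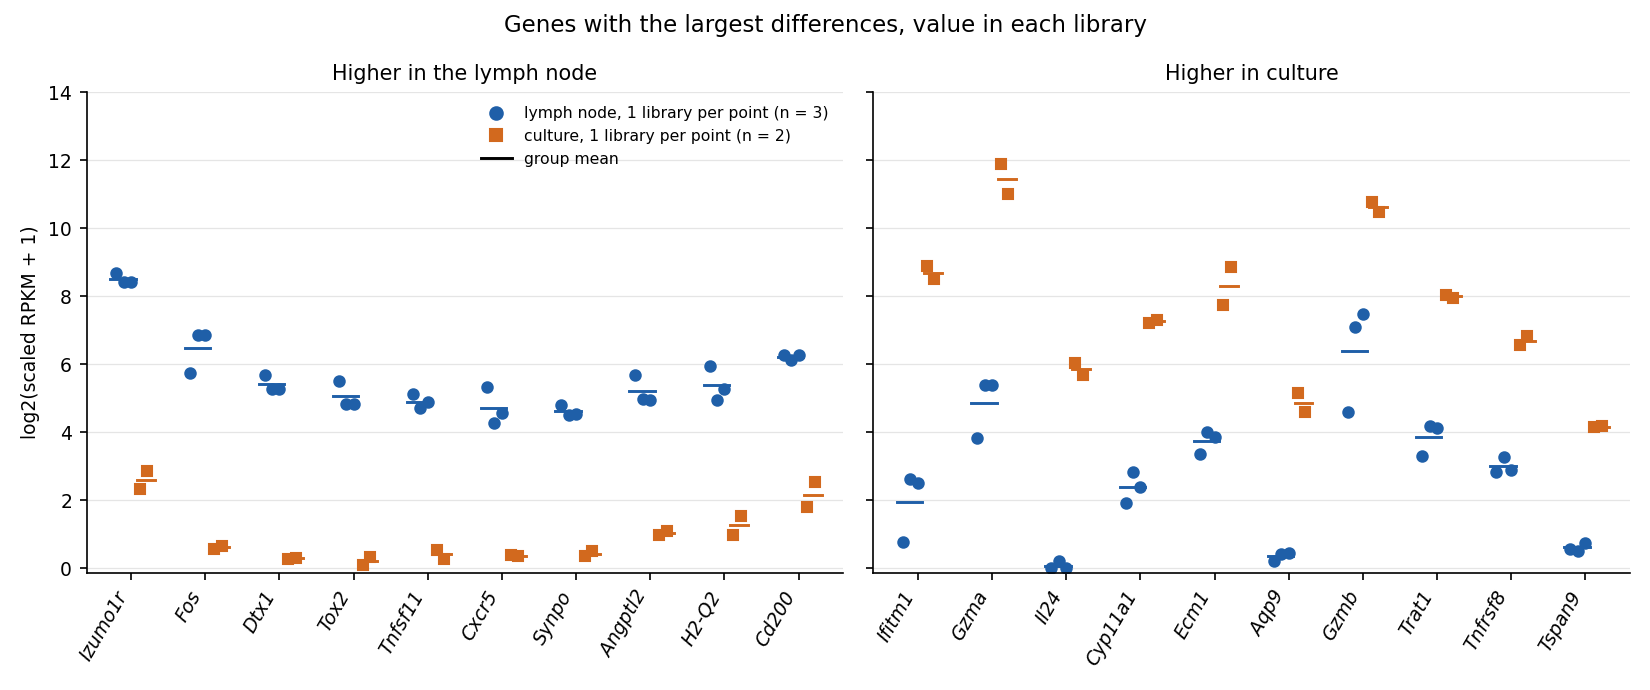
The 10 genes with the highest and the 10 with the lowest log2 fold change under the naming rule, as log2(scaled RPKM + 1) in each library. Blue circles are lymph node libraries, orange squares culture libraries and bars the group means. The naming rule took only genes whose groups do not overlap, which held for 57.8% of all tested genes. Gzmb spans 23.1 to 175 within the node.

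The Th2 genes did not move together. Of 24 tested, 7 were higher in the node, 10 were lower and 7 did not pass, with a median log2 fold change of -0.10. Il4 was higher in the node at 40.5, 48.3 and 39.5 than in culture at 9.18 and 7.18, a ratio of 5.23 (log2 fold change 2.26, SE 0.14, adjusted p = 5.77e-05). Il5, the eosinophil growth factor, was low in both, at 0.749, 1.27 and 1.23 in the node and 0.0953 and 0.122 in culture, and passed. Il13 stood at 5.47, 15.6 and 7.23 in the node and 5.60 and 3.93 in culture and did not pass, with node library 2 the highest of its group (log2 fold change 0.75, SE 0.37, adjusted p = 0.158). Il1rl1, which encodes the IL-33 receptor, was higher in the node (0.994, 1.34 and 1.80 in the node, 0.0821 and 0.0619 in culture), as were Maf (83.4, 79.2 and 72.4 in the node, 33.1 and 26.0 in culture), a factor that binds the Il4 promoter, and the repair factor Areg (0.690, 1.71 and 1.05 in the node, 0 and 0.0779 in culture). Il5, Il1rl1, Areg and Tnfsf11 reached 1 RPKM in node libraries alone, and so entered the test because they were high there. With a filter at 5 RPKM 4 of 20 Th2 genes were higher. Basophils and mast cells also make IL-4. Of their 13 markers 2 were tested, Hdc higher (1.92, 2.34 and 1.74 in the node, 0.223 and 0.216 in culture) and Cpa3 lower (0, 0.0625 and 0.0916 in the node, 14.8 and 5.81 in culture). The summed level was 2.26 to 2.67 in the node and 6.53 to 15.7 in culture. In all node libraries 7 of the 13 were at 0, and 6 were at 0 in both groups, among them the defining markers Fcer1a and Ms4a2. Their part in the result was not tested.

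Genes lower in the node included receptors and secreted factors. Il4ra, the receptor chain for IL-4, stood at 23.3, 24.4 and 26.2 in the node and 257 and 312 in culture, 11.5 times higher in culture (log2 fold change -3.47, SE 0.12, adjusted p = 9.88e-06). Nfil3, a factor that IL-4 induces, stood at 20.4, 32.6 and 25.7 in the node and 156 and 178 in culture (log2 fold change -2.65), and Ecm1, a secreted protein of Th2 cells, at 9.32, 15.1 and 13.5 in the node and 213 and 466 in culture. Il10 stood at 8.01, 17.2 and 9.24 in the node and 37.5 and 18.99 in culture, and lost its call without node library 1 or 3 or culture library 1 (highest adjusted p = 0.128). Il17rb, the IL-25 receptor, was lower too (5.36, 4.44 and 4.599 in the node, 12.7 and 12.5 in culture), as was the chemokine receptor gene Ccr8 (12.9, 27.9 and 20.04 in the node, 55.0 and 39.3 in culture), the latter not without culture library 1 (adjusted p = 0.0533). Batf, Irf4, Pparg, Ccr4 and Penk did not pass. Without node library 2 or 3 the number higher was 4, and without culture library 1 the number lower was 6.

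Nearly all tested genes of follicular helper cells were higher in the node. Of 16 tested, 15 were higher, 0 were lower and 1 did not pass (median log2 fold change 2.71, against -0.02 over all genes), and the count was 15 in each fit that left out 1 library. Of these 16 genes 2, Cxcr5 and Tox2, reached 1 RPKM in node libraries alone. Bcl6, the factor that specifies these cells, stood at 22.8, 15.3 and 16.4 in the node and 2.98 and 4.40 in culture (log2 fold change 2.03, SE 0.20, adjusted p = 3.84e-04). Cxcr5, the receptor that draws them to B cell follicles, stood at 39.4, 18.1 and 22.4 in the node and 0.314 and 0.269 in culture. Il21, the cytokine they give to B cells, stood at 32.7, 26.6 and 29.5 in the node and 1.22 and 1.61 in culture (log2 fold change 3.66, SE 0.14, adjusted p = 1.05e-05). The groups were apart in all 3 genes, and node library 1 was the highest for each of them.

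The other members covered transcription factors and surface molecules. Tox2 stood at 44.2, 27.1 and 27.4 in the node and 0.0578 and 0.253 in culture, and Tox at 19.2, 12.4 and 13.8 in the node and 1.02 and 1.64 in culture. Pdcd1, which encodes the inhibitory receptor PD-1, stood at 48.5, 33.2 and 32.1 in the node and 15.6 and 13.4 in culture, and Sh2d1a, the adaptor that lets helper cells hold on to B cells, stood at 116, 95.5 and 107 in the node and 53.9 and 41.8 in culture. P2rx7, the ATP receptor that limits these cells, stood at 79.9, 68.3 and 77.3 in the node and 11.03 and 11.4 in culture (log2 fold change 2.63, SE 0.11, adjusted p = 1.35e-05). Icos, a costimulator that activated T cells share, stood at 96.2, 83.1 and 96.8 in the node and 104 and 79.8 in culture and did not pass. B cells also express Cxcr5, Bcl6, Btla and Pou2af1. The B cell markers, whose sums are given above, were higher in the node in 5 of 6 tested cases (3 of 5 without node library 1 or 3), with Cd79a at 4.38, 3.51 and 4.15 in the node and 0.330 and 0.672 in culture, and their part in the result was not tested.

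Most genes of cytotoxic and Th1 cells were lower in the node. Of 22 tested, 2 were higher, 16 were lower and 4 did not pass (median log2 fold change -1.11), with 11 to 15 lower when 1 library was left out. Gzmb, the granule protease granzyme B, stood at 1734 and 1417 in culture and 23.1, 136 and 175 in the node (log2 fold change -4.23, SE 0.75, adjusted p = 0.00544). Node library 1 was the lowest, and the fold change ranged from -4.77 to -3.33 with 1 library left out. Prf1, the pore-forming partner of the granzymes, stood at 7.72 and 5.43 in culture and 0.457, 0.220 and 0.300 in the node (log2 fold change -2.50, SE 0.18, adjusted p = 9.27e-05). Prf1 and Il18r1 reached 1 RPKM in culture libraries alone, and so entered the test because they were high there. With a filter at 5 RPKM 13 of 18 genes of this list were lower and 1 higher. Receptor genes for IL-12 and IFN-γ were higher in culture. Il12rb2 stood at 53.8 and 40.0 in culture and 4.99, 3.60 and 3.60 in the node, Il12rb1 at 72.4 and 63.8 in culture and 18.8, 19.98 and 16.4 in the node, and Ifngr1 at 182 and 143 in culture and 39.2, 37.4 and 38.1 in the node. Eomes, a factor of cytotoxic cells, was higher in culture too (17.5 and 10.9 in culture, 1.73, 0.741 and 0.792 in the node).

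Ifng itself and Cxcr3 ran the other way. Ifng stood at 6.40, 4.37 and 3.71 in the node and 1.49 and 0.621 in culture (log2 fold change 1.51, SE 0.25, adjusted p = 0.00382). Cxcr3, the receptor that Th1 cells follow into inflamed tissue, stood at 63.5, 60.1 and 50.4 in the node and 33.2 and 26.7 in culture (log2 fold change 0.93, SE 0.14, adjusted p = 0.00260). NK cells and CD8 T cells express granzymes as well. Of their 13 markers 6 were tested, 4 were lower in the node (2 of 4 without either culture library), and the summed level was 24.6 to 49.9 in the node and 2077 to 3841 in culture, where nearly all of it was Gzma. Beside Ncr1 and Cd8a at or near 0 stood Klrk1 at 3.66 and 2.58 in culture and 0.345, 0.213 and 0.193 in the node. Their part in the result was not tested.

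Most early activation genes were higher in the node. Of 31 tested, 21 were higher, 4 were lower and 6 did not pass (median log2 fold change 1.54). Fos, Fosb, Egr2, Nr4a2 and Nr4a3 reached 1 RPKM in node libraries alone, and 4 of these passed as higher. Atf3, which passed as lower, did so in culture libraries alone. Such genes entered the test because they were high there. With a filter at 5 RPKM 20 of 28 were higher and 3 lower. Egr2, a factor that receptor signals induce through calcium, stood at 18.7, 15.1 and 16.5 in the node and 0.633 and 0.791 in culture (log2 fold change 3.37, SE 0.13, adjusted p = 1.35e-05), and its relative Egr3 at 17.4, 16.1 and 15.9 in the node and 1.66 and 1.47 in culture. Nr4a1, a nuclear receptor whose level follows the strength of receptor signals, stood at 39.1, 55.2 and 50.6 in the node and 2.14 and 2.63 in culture (log2 fold change 3.85, SE 0.16, adjusted p = 1.44e-05). Genes of feedback inhibitors were higher as well. Nfkbia, the inhibitor of NF-κB, stood at 264, 336 and 302 in the node and 20.2 and 28.04 in culture, Dusp1, a phosphatase of MAP kinases, at 49.8, 79.8 and 76.5 in the node and 5.14 and 5.62 in culture, and Zfp36, which shortens the life of cytokine mRNA, at 221, 255 and 259 in the node and 47.1 and 59.3 in culture. Fosl2, Ier3, Atf3 and Dusp4 were lower in the node, at -1.68, -1.64, -1.55 and -0.78 on the log2 scale, and Dusp4 lost its call without node library 1 (adjusted p = 0.0530). The spread within the node was wide for Fosb (2.50, 14.7 and 12.8) and Tnfaip3 (51.7, 124 and 93.9), lowest in library 1 for both.

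The CArG box is the site of the serum response factor, which drives many early genes. In the 250 bases before the start of Egr2, the RefSeq promoter table (build GRCm38.p6, the same as mm10) holds 1 such box, shown in capitals with 20 bases on each side (chr10:67537777-67537826, plus strand):
Egr2: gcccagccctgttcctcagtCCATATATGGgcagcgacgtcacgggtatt
A CArG box was found in 2 of the 22 early activation genes with such a promoter, Egr2 and Zfp36, and in 1.05% of the 7725 promoters of all tested genes, with both strands searched. Both genes were higher in the node. The motifs were chosen after the values were seen, and a match describes the letters only.

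Many T cell receptor signalling and checkpoint genes were higher in the node as well. Of 32 signalling genes 19 were higher, 3 were lower and 10 did not pass (median 0.45). Nfatc1, the factor that calcium signals switch on, stood at 164, 124 and 118 in the node and 18.98 and 18.1 in culture (log2 fold change 2.79, SE 0.15, adjusted p = 3.06e-05). The kinase gene Fyn stood at 169, 139 and 150.5 in the node and 45.7 and 44.5 in culture, and Ptpn6, a phosphatase that damps the receptor, at 194, 189 and 182 in the node and 70.0 and 80.4 in culture. Rasgrp1, which activates Ras, went the other way (39.1, 33.5 and 39.0 in the node, 132 and 102 in culture). Of 16 checkpoint genes 10 were higher and 3 lower. Lag3, an inhibitory receptor for MHC class II, stood at 328, 349 and 299 in the node and 47.2 and 60.2 in culture, Btla at 44.9, 35.4 and 44.9 in the node and 3.16 and 4.30 in culture, and Nt5e, the ectoenzyme CD73 that makes adenosine, at 31.6, 29.3 and 31.7 in the node and 0.921 and 1.52 in culture. Entpd1, the ectoenzyme CD39 that acts just before CD73, was lower in the node (7.63, 7.53 and 6.61 in the node, 19.4 and 17.1 in culture).

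Cytokine receptor genes changed in both directions. Of 36 genes of receptors, JAK and STAT proteins and SOCS feedback, 13 were higher in the node (8 without node library 2 or 3), 16 were lower and 7 did not pass (median -0.19). Il9r and Il1rl1 reached 1 RPKM in node libraries alone and Il18r1 in culture libraries alone, where they were high. With a filter at 5 RPKM 10 of 31 were higher and 15 lower. Il2ra, the high-affinity chain for IL-2, stood at 24.0, 45.1 and 36.9 in the node and 251 and 236 in culture (log2 fold change -2.79, SE 0.23, adjusted p = 1.76e-04), while the shared chains Il2rb and Il2rg stood at 277 and 284 on average in the node, 334 and 302 in culture, and did not pass. Il7r stood at 9.81, 17.3 and 20.4 in the node and 111 and 91.9 in culture (log2 fold change -2.66, SE 0.27, adjusted p = 4.12e-04). The STAT5 targets Cish (23.3, 41.8 and 28.6 in the node, 112 and 103 in culture), Socs2 (2.26, 5.33 and 4.38 in the node, 29.1 and 25.7 in culture) and Pim1 (82.0, 106 and 83.7 in the node, 151 and 178 in culture) were lower in the node, as was Socs1 (17.7, 14.1 and 12.0 in the node, 74.1 and 102 in culture), which blocks JAK kinases. Il10ra (33.1, 30.3 and 30.7 in the node, 9.35 and 9.58 in culture), Il6ra (44.4, 36.5 and 38.7 in the node, 5.62 and 10.3 in culture), Il27ra (146, 141 and 142 in the node, 65.0 and 64.7 in culture) and Il9r (3.81, 4.75 and 5.16 in the node, 0.960 and 0.852 in culture) were higher there. Il1r2, a decoy receptor for IL-1, was lower (0.898, 1.62 and 1.28 in the node, 13.8 and 15.3 in culture).

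Of 22 survival genes tested, 4 were higher, 5 were lower (8 without culture library 2) and 13 did not pass, near the shares of 14.1% and 17.1% over all genes. Bcl2, which blocks mitochondrial death signals, stood at 10.1, 11.5 and 10.8 in the node and 72.7 and 63.7 in culture (log2 fold change -2.55, SE 0.11, adjusted p = 1.55e-05). Its relatives Bcl2a1b (50.2, 45.8 and 48.5 in the node, 4.71 and 3.38 in culture) and Bcl2a1d (10.6, 8.35 and 8.74 in the node, 0.976 and 0.177 in culture) were higher in the node. These copies are nearly identical, so reads may be split between them. Cdkn1a, the cell cycle inhibitor p21, was lower in the node (5.40, 9.03 and 4.82 in the node, 42.2 and 45.8 in culture), as was the death gene Bbc3 (2.09, 2.01 and 1.62 in the node, 5.94 and 10.01 in culture). In the TNF superfamily 10 of 25 genes were higher and 6 lower. Cd40lg, the helper signal to B cells and dendritic cells, stood at 33.7, 27.2 and 35.2 in the node and 5.25 and 6.58 in culture, and Tnfsf11, which encodes RANKL, at 33.4, 24.96 and 28.7 in the node and 0.455 and 0.210 in culture. Tnfrsf4, which encodes OX40, stood at 121, 159 and 134 in the node and 40.2 and 54.8 in culture, whereas Tnfrsf8 (6.07, 8.71 and 6.35 in the node, 93.9 and 112 in culture) and Tnfrsf9 (12.7, 15.7 and 13.5 in the node, 44.0 and 41.5 in culture) were lower.

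Genes of cholesterol synthesis and its control were lower in the node at most steps. Of 25 genes tested, 0 were higher, 21 were lower and 4 did not pass (median log2 fold change -1.12), and 19 or 20 were lower in the fits that left out 1 library. Hmgcs1, an enzyme at the start of the pathway, stood at 11.4, 12.7 and 13.8 in the node and 44.8 and 36.2 in culture (log2 fold change -1.60, SE 0.13, adjusted p = 1.83e-04). The groups were apart. Acat2, which makes its building block, stood at 5.39, 5.80 and 6.96 in the node and 27.3 and 26.9 in culture (log2 fold change -1.999, SE 0.13, adjusted p = 6.30e-05). Insig1, which holds back the pathway's regulator SREBP, was lower too (12.4, 15.1 and 15.1 in the node, 48.1 and 42.3 in culture), and Srebf2, the gene of SREBP-2, was lower by less (61.1, 69.8 and 63.6 in the node, 87.3 and 102 in culture). Pmvk, Tm7sf2, Ebp and Scap did not pass. Hsd17b7 lost its call without node library 1 or culture library 1 (highest adjusted p = 0.0614), and Dhcr7 without any 1 node library or culture library 2 (0.130).

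SREBP factors bind sterol elements beside CCAAT boxes, to which NF-Y binds. The 250 bases before the start are shown where the capitals fall: CCAAT on either strand (ATTGG where it lies on the other strand) and, in Hmgcs1, 1 sterol element with the letters TCACNCCAC. Hmgcs1 lies at chr13:119690101-119690330 and Idi1, which encodes a later enzyme of the pathway, at chr13:8885541-8885605, both on the plus strand:
Hmgcs1: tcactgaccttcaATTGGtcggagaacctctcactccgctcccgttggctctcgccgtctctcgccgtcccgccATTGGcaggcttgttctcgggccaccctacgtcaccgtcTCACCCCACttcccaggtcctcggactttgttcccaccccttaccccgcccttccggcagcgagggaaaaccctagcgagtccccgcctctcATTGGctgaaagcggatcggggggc
Idi1: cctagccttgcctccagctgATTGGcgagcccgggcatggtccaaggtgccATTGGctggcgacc
Of the 25 tested genes 18 had a promoter in the table within 50 bases of the transcript start given in the files, and 15 of them (83.3%) held CCAAT on either strand. Of the 7725 promoters of all tested genes 36.8% held it. TCACNCCAC was in 1 of the 18 and in 1.01% of all. The motifs were chosen after the values were seen and no test was made.

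Fatty acid genes were lower as well, in 12 of 20 cases, with 1 higher and 7 not passed (median -0.79). Fatty acid desaturases were among them. Scd1 stood at 1.002, 1.43 and 1.42 in the node and 14.5 and 17.7 in culture, Scd2 at 72.9, 87.4 and 91.2 in the node and 268 and 256 in culture, and Fads2 at 3.69, 6.26 and 4.52 in the node and 48.5 and 52.2 in culture (log2 fold changes -2.91, -1.64 and -3.16). Fasn, the fatty acid synthase, stood at 23.9, 30.2 and 27.9 in the node and 52.9 and 54.5 in culture, and Plin3, which coats lipid droplets, at 14.6, 13.4 and 12.9 in the node and 47.3 and 52.6 in culture. Of 11 genes of cholesterol efflux and its regulators LXR, 2 were higher and 6 lower (3 without node library 1 or 3). Smpdl3a, an LXR target, was higher in the node (69.1, 46.9 and 60.5 in the node, 11.3 and 9.31 in culture), and Npc2, a lysosomal cholesterol carrier, was lower (56.8, 58.7 and 57.5 in the node, 119 and 136 in culture).

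**Figure D3:**
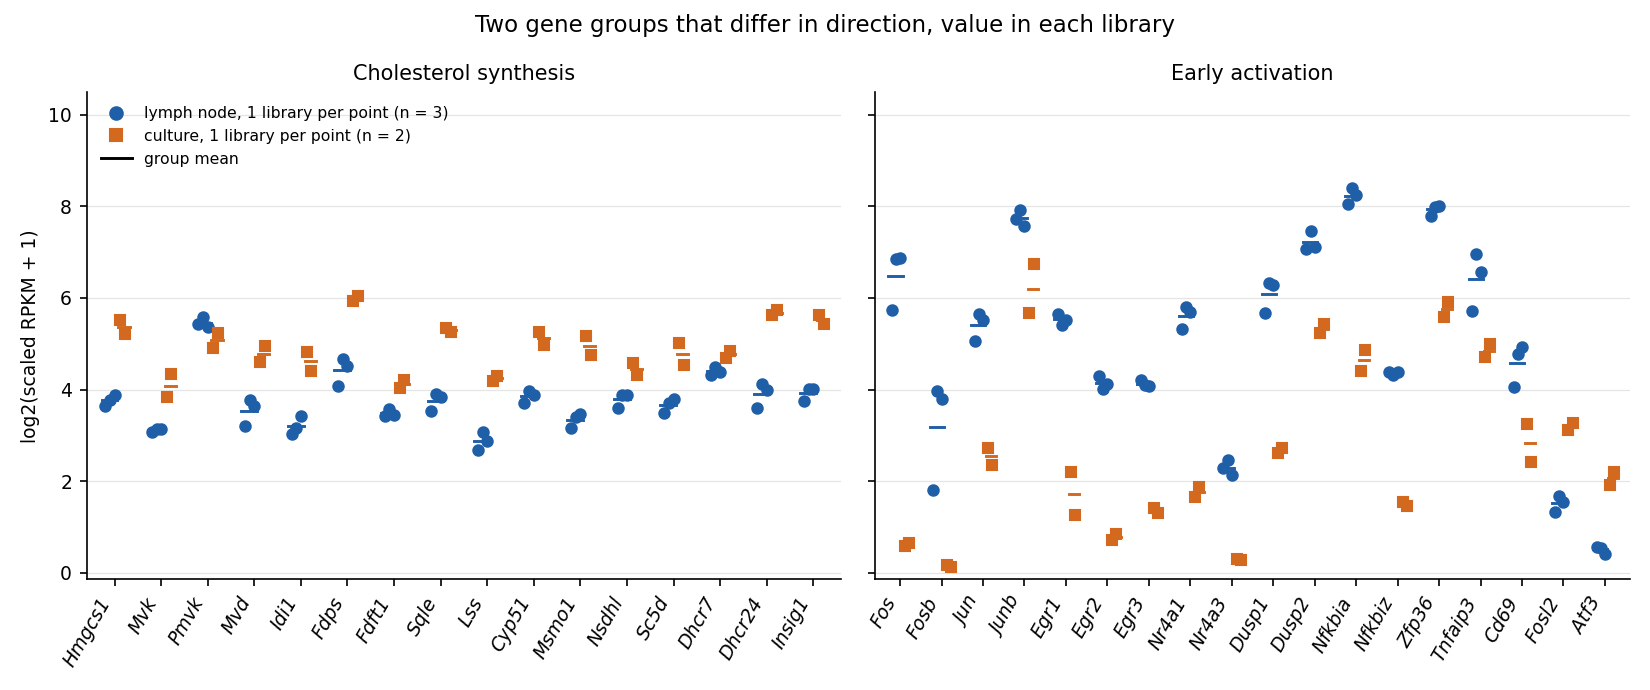
Genes of cholesterol synthesis and its control, in pathway order, and genes of early activation, as log2(scaled RPKM + 1) in each library. Blue circles are lymph node libraries, orange squares culture libraries and bars the group means. All cholesterol genes drawn except Pmvk lie lower in the node, and all activation genes drawn except Fosl2 and Atf3 lie higher there. The genes drawn were chosen and are not all that were tested. Tm7sf2, Ebp and Scap, which did not pass, and Ier3 and Dusp4, which were lower in the node, are not drawn.

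Glycolysis and hypoxia genes were lower in the node in 19 of 35 cases, with 2 higher and 14 not passed (median -0.50). Vegfa, Car9 and Ak4, among the 19, reached 1 RPKM in culture libraries alone. They entered the test because they were high there. With a filter at 5 RPKM 14 of 31 were lower and 2 higher. Bnip3, a hypoxia-induced gene that marks mitochondria for removal, stood at 1.73, 2.06 and 2.06 in the node and 32.1 and 24.2 in culture (log2 fold change -3.29, SE 0.15, adjusted p = 1.72e-05). Vegfa, which calls in blood vessels, stood at 0.329, 0.706 and 0.369 in the node and 4.62 and 9.64 in culture, Ndrg1 at 3.03, 5.98 and 4.96 in the node and 27.96 and 34.9 in culture, and Aldoc, an aldolase, at 3.10, 2.53 and 2.64 in the node and 11.7 and 18.6 in culture. Of the transporters, Slc2a3, which takes up glucose, stood at 11.7, 11.8 and 11.1 in the node and 30.0 and 41.9 in culture, and Slc16a3, which exports lactate, at 9.52, 9.99 and 8.49 in the node and 33.6 and 47.9 in culture (log2 fold change -1.996, SE 0.16, adjusted p = 1.58e-04). Some abundant enzymes of glycolysis did not pass, among them Ldha (687, 812 and 732 in the node, 709.7 and 824 in culture), Pkm (426, 501 and 424 in the node, 464 and 577 in culture) and Gapdh (90.9, 106 and 90.6 in the node, 108 and 123 in culture). Pfkfb3, which speeds up glycolysis, and Epas1, which encodes HIF-2α, were the ones higher in the node, and Epas1 lost its call without node library 2 or 3 or culture library 1 (highest adjusted p = 0.0970).

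The core letters of a hypoxia response element are ACGTG, to which HIF binds. Bnip3 and Slc16a3 are shown with ACGTG on either strand in capitals and up to 20 bases on each side. In Bnip3 2 matches on opposite strands overlap as CACGTG. Bnip3 lies on the minus strand at chr7:138909589-138909634 and Slc16a3 on the plus strand at chr11:120949020-120949066:
Bnip3: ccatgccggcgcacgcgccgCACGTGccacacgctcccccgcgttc
Slc16a3: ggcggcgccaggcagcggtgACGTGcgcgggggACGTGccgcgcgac
ACGTG was found within 250 bases in 16 (61.5%) of the 26 glycolysis and hypoxia genes that had a promoter in the table and in 22.5% of all 7725. The motif was chosen after the values were seen, and no test was made.

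Some mitochondrial genes were higher in the node, by small amounts. Of 34 oxidative phosphorylation genes 8 were higher, 1 was lower and 25 did not pass (median 0.19). Atp5a1, a subunit of ATP synthase, stood at 386, 424 and 414 in the node and 282 and 284 in culture (log2 fold change 0.52, SE 0.10, adjusted p = 0.00701). Of 23 genes of the citrate cycle and related enzymes 10 were higher and 3 lower (median 0.27), among them Mdh2 (261, 281 and 264 in the node, 158 and 181 in culture) and Ogdh (44.6, 48.0 and 46.4 in the node, 27.96 and 30.3 in culture) upward. The phosphorylation count was 4 without node library 2 or 3, 5 without node library 1 or culture library 1, and 12 without culture library 2. The citrate cycle count was 6, 4 and 3 without node library 1, 2 and 3.

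Genes that amino acid shortage induces through ATF4 were lower in the node in 14 of 29 cases, with 0 higher (median -0.52). Of the 14, 5 (Atf3, Chac1, Pycr1, Slc7a3 and Nupr1) reached 1 RPKM in culture libraries alone, and so entered the test because they were high there. With a filter at 5 RPKM 7 of 21 were lower (median -0.33). Trib3, a pseudokinase that ATF4 induces, stood at 1.25, 1.74 and 2.14 in the node and 10.9 and 15.7 in culture (log2 fold change -2.39, SE 0.20, adjusted p = 1.83e-04), and Chac1, which breaks down glutathione, at 0.0995, 0.287 and 0.252 in the node and 3.80 and 3.61 in culture. Asns, which makes asparagine, stood at 8.84, 12.5 and 11.5 in the node and 36.6 and 28.5 in culture, while Atf4 itself did not pass (147, 189 and 175 in the node, 203 and 223 in culture). The count lower was 7 without culture library 2. Of 18 metal and iron genes 2 were higher and 8 lower, with the metallothionein gene Mt2 at 4.34, 10.2 and 5.49 in the node and 28.7 and 34.3 in culture, and Tfrc, which takes up iron, at 11.4, 13.5 and 17.3 in the node and 50.4 and 25.7 in culture. Of 26 genes of the NRF2 oxidative response 1 was higher and 3 were lower, with Gpx4, which guards lipids from oxidation, at 110.1, 125 and 113 in the node and 179 and 229 in culture.

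Proliferation genes were expressed in both groups, and most mitosis genes were lower in the node. Of 30 mitosis genes 0 were higher, 20 were lower and 10 did not pass (median -0.48). Top2a, which untangles DNA, stood at 126, 145 and 142 in the node and 289.6 and 218 in culture (log2 fold change -0.86, SE 0.14, adjusted p = 0.00379), and Mki67, a marker of cycling cells, at 112, 131 and 125 in the node and 178 and 152 in culture (-0.43, SE 0.12, adjusted p = 0.0309). The count of mitosis genes was 7, 13 and 11 without node library 1, 2 and 3, and 12 without culture library 1. Of 30 replication genes 4 were lower and 26 did not pass (median -0.20). The count was 0, 1 and 0 without node library 1, 2 and 3, 0 without culture library 1, and 11 without culture library 2. Mki67 lost its call without any 1 node library or culture library 1 (highest adjusted p = 0.105).

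Ribosomal protein genes were higher in the node in 8 of 36 cases, with 0 lower and 28 not passed (median 0.24). Rpl8 stood at 1727, 1879 and 1705 in the node and 1098 and 1413 in culture (log2 fold change 0.51, SE 0.14, adjusted p = 0.0306), and Rpsa at 314, 352 and 283 in the node and 181 and 233 in culture. Rpsa lost its call without node library 1 or 2 or culture library 1 (highest adjusted p = 0.0580). With 1 library left out the count ranged from 0 to 17, lowest without node library 2 and highest without culture library 2, and it was 0 with no filter on low values. Processed pseudogenes of ribosomal proteins can share their reads. Of 30 genes of ribosome assembly and other MYC targets 8 were higher (2 without node library 2 or culture library 1, or with no filter) and 2 lower, and of 28 chaperone and unfolded protein genes 8 were higher (2 without node library 2 or 3) and 3 lower (7 without culture library 2). Hsph1, a heat shock protein, was higher (55.1, 43.6 and 53.5 in the node, 25.1 and 18.7 in culture), and Ern1, the sensor IRE1, was lower (3.03, 3.29 and 2.71 in the node, 6.80 and 7.87 in culture). The most abundant genes that passed as higher were Rpl8, Rpl13a, Rpl4, Rps15 and Hsp90ab1 (log2 fold changes 0.35 to 0.52), and each lost its call in at least 4 of the 5 fits that left out 1 library. Those that passed as lower were Gzma, Gzmb, B2m (mean 1316 in the node, 2131 in culture), Lgals1 (1059 and 2057) and Vim (753 and 1531), and each kept its call in these fits. B2m is the light chain of MHC class I, Lgals1 encodes galectin-1 and Vim an intermediate filament.

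Genes of exit from the node and entry into it did not move together. Of 12 tested, 3 were higher in the node (5 without culture library 2), 2 were lower (4 without culture library 1) and 7 did not pass (median 0.02). S1pr1, the receptor that leads T cells out of the node along sphingosine phosphate, stood at 62.3, 56.7 and 59.4 in the node and 49.4 and 74.4 in culture, the node lying between the culture libraries (log2 fold change -0.03, SE 0.17, adjusted p = 0.903). Klf2, which switches S1pr1 on, stood at 77.7, 83.7 and 74.7 in the node and 31.1 and 84.3 in culture, with culture library 1 far below culture library 2 (0.61, SE 0.35, adjusted p = 0.220). Ccr7, which guides cells into and within nodes, stood at 62.0, 71.3 and 66.7 in the node and 58.2 and 101 in culture (-0.20, SE 0.21, adjusted p = 0.497). The signs turned in fits that left out 1 library: without culture library 2 the log2 fold changes of S1pr1 and Ccr7 were 0.26 and 0.19, and without culture library 1 that of Klf2 was -0.10.

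Among those that passed were Cxcr4, Cd69, Gpr183 and Klf3. Cxcr4, the receptor for the chemokine CXCL12, was lower in the node (30.7, 33.3 and 28.4 in the node, 75.9 and 88.3 in culture). Cd69, whose product removes S1PR1 from the surface, was higher at 15.6, 26.2 and 29.3 against 8.51 and 4.31 (log2 fold change 1.75, SE 0.31, adjusted p = 0.00559), lowest in node library 1. Gpr183, a receptor for oxysterols that places cells at follicle borders, stood at 20.2, 13.1 and 15.05 in the node and 7.24 and 5.14 in culture, and the factor Klf3 at 19.8, 15.9 and 16.5 in the node and 2.49 and 5.43 in culture.

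More chemokine receptor genes were lower than higher in the node. Of 19 tested, 4 were higher, 9 were lower and 6 did not pass (median -0.88). Ccr1, Ccr10 and Cx3cr1 reached 1 RPKM in culture libraries alone and passed as lower. Ccr9 and Cxcr5 reached it in node libraries alone and passed as higher. Such genes entered the test because they were high there. With a filter at 5 RPKM 3 of 14 were higher and 6 lower. Cxcr6 stood at 22.8, 24.0 and 28.4 in the node and 213 and 81.0 in culture, with the culture libraries far apart. Ccr1 (0.441, 0.764 and 0.465 in the node, 3.87 and 3.04 in culture) and Cysltr1, a leukotriene receptor (2.70, 4.74 and 4.51 in the node, 26.0 and 14.9 in culture), were lower too, and Ccr4, a receptor of Th2 cells, did not pass (32.2, 39.0 and 38.6 in the node, 35.0 and 41.3 in culture). Without culture library 1 or 2 only 16 genes reached the filter, and the median was -0.56 and -0.48.

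Adhesion genes changed in both directions. Of 28 adhesion genes 7 were higher and 13 lower. Both chains of the integrin VLA-4 were higher in the node, Itgb1 at 241, 195 and 239 in the node and 31.3 and 34.9 in culture and Itga4 at 25.2, 27.6 and 34.4 in the node and 4.38 and 3.85 in culture (log2 fold changes 2.73 and 2.55). Itgb3 (12.9, 13.4 and 15.1 in the node, 132 and 124 in culture) and Itgae, the chain that binds epithelial cadherin (1.70, 3.27 and 2.44 in the node, 14.9 and 18.4 in culture), were lower in the node. Of 16 glycosyltransferase genes 5 were higher and 6 lower. Fut7, which makes selectin ligands, was lower (2.84, 3.21 and 2.61 in the node, 18.0 and 23.7 in culture), as was Gcnt2 (0.221, 0.270 and 0.131 in the node, 5.92 and 3.64 in culture), while Ext1, which builds heparan sulfate, and Mgat5 were higher (log2 fold changes 2.57 and 1.76). Of 16 residency genes 10 were higher and 4 lower (2 without node library 1 or 3; median 0.90). Rgs16, Itga1 and Ahr, among the 10, reached 1 RPKM in node libraries alone. They entered the test because they were high there. With a filter at 5 RPKM 8 of 14 were higher and 4 lower. Ahr, a sensor of aromatic ligands, stood at 11.2, 16.7 and 13.3 in the node and 0.573 and 0.383 in culture, and Rgs16, which damps chemokine signals, at 7.51, 7.83 and 7.19 in the node and 0.727 and 0.562 in culture.

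Genes of the Notch pathway passed in shares near those over all genes (14.1% higher and 17.1% lower), and its targets did not share a direction. Of 21 pathway genes 3 were higher (5 without culture library 2), 4 were lower (2 without node library 1 or 2 or culture library 1) and 14 did not pass (median -0.01). Notch1 stood at 46.6, 46.7 and 44.0 in the node and 25.2 and 27.7 in culture (log2 fold change 0.77, SE 0.10, adjusted p = 0.00126), and Notch2 at 7.66, 7.78 and 7.16 in the node and 7.32 and 6.94 in culture, which did not pass (0.07, SE 0.11, adjusted p = 0.667). Psen2, a subunit of the protease that frees active Notch, was higher (43.2, 37.4 and 36.8 in the node, 19.1 and 21.0 in culture), and Lfng, which modifies Notch for its ligands, was lower (49.7, 45.3 and 45.0 in the node, 78.6 and 91.9 in culture). The ligand gene Jag2 was low, and lower in the node (0.298, 0.257 and 0.316 in the node, 1.57 and 2.88 in culture). Of 7 tested target genes 2 were higher (Dtx1 and Trib2) and 3 were lower (Ccnd3, Gzmb and Il2ra). Trib2 stood at 38.9, 41.8 and 42.3 in the node and 17.8 and 24.4 in culture. Hes1 was under 1 in all 5 libraries (0.0365, 0.0312 and 0 in the node and 0.167 and 0.227 in culture) and was not tested. Ccnd3 lost its call without any 1 node library or culture library 2 (highest adjusted p = 0.134).

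Further lists held calls in both directions. Of 19 naive and memory genes 5 were higher (3 without node library 1) and 8 lower, with Tcf7, a factor of long-lived T cells, at 591, 471 and 513 in the node and 158 and 223 in culture, and Txnip, which limits glucose uptake, at 64.8, 74.2 and 70.9 in the node and 258 and 246 in culture. Of 14 regulatory T cell genes 5 were higher, among them Nrp1 (31.9, 25.3 and 29.2 in the node, 1.74 and 3.67 in culture), and 6 lower, among them Foxp3 (-0.66, SE 0.13, adjusted p = 0.00936) and Il2ra. Of 38 interferon response genes 2 were higher and 16 lower (median -0.44). Guanylate-binding protein genes such as Gbp4 (19.8, 15.3 and 18.1 in the node, 64.2 and 41.6 in culture) and the RNA sensor gene Ddx58 (7.08, 6.10 and 6.78 in the node, 20.8 and 15.5 in culture) were lower, while Isg15 (40.1, 26.5 and 28.3 in the node, 7.65 and 9.44 in culture) and Ifi27l2a (781, 544 and 606 in the node, 149.9 and 242 in culture) were higher.

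Of 13 clock genes 3 were higher, among them Per2 (1.54, 1.70 and 1.58 in the node, 0.233 and 0.290 in culture) and Bhlhe40 (78.1, 120.2 and 96.5 in the node, 28.9 and 30.2 in culture), and 3 lower, among them Nr1d2 (0.900, 0.943 and 1.07 in the node, 3.55 and 3.18 in culture). Of 17 glucocorticoid response genes 5 were higher and 8 lower, with Smap2 at 39.9, 39.7 and 37.6 in the node and 92.3 and 105 in culture. Of 33 genes of the cytoskeleton and motility 6 were higher (2 without any 1 node library, 3 without culture library 1 and 10 without culture library 2) and 7 lower, and the lower ones included S100a4 (81.0, 95.8 and 72.5 in the node, 375 and 279 in culture), S100a6 (196, 297 and 223 in the node, 674 and 658 in culture) and Lmna (1.02, 0.914 and 0.603 in the node, 7.77 and 5.64 in culture). Only 3 Th17 genes were tested, and Ahr and Il1r1 (3.81, 3.37 and 3.61 in the node, 0.907 and 0.419 in culture) entered the test through the node libraries alone. Stat3 (63.9, 61.9 and 62.4 in the node, 47.9 and 47.2 in culture) was higher, but not without any 1 node library (highest adjusted p = 0.0709). With no filter 4 of 9 Th17 genes were higher and the median log2 fold change was -0.029.

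**Figure D4:**
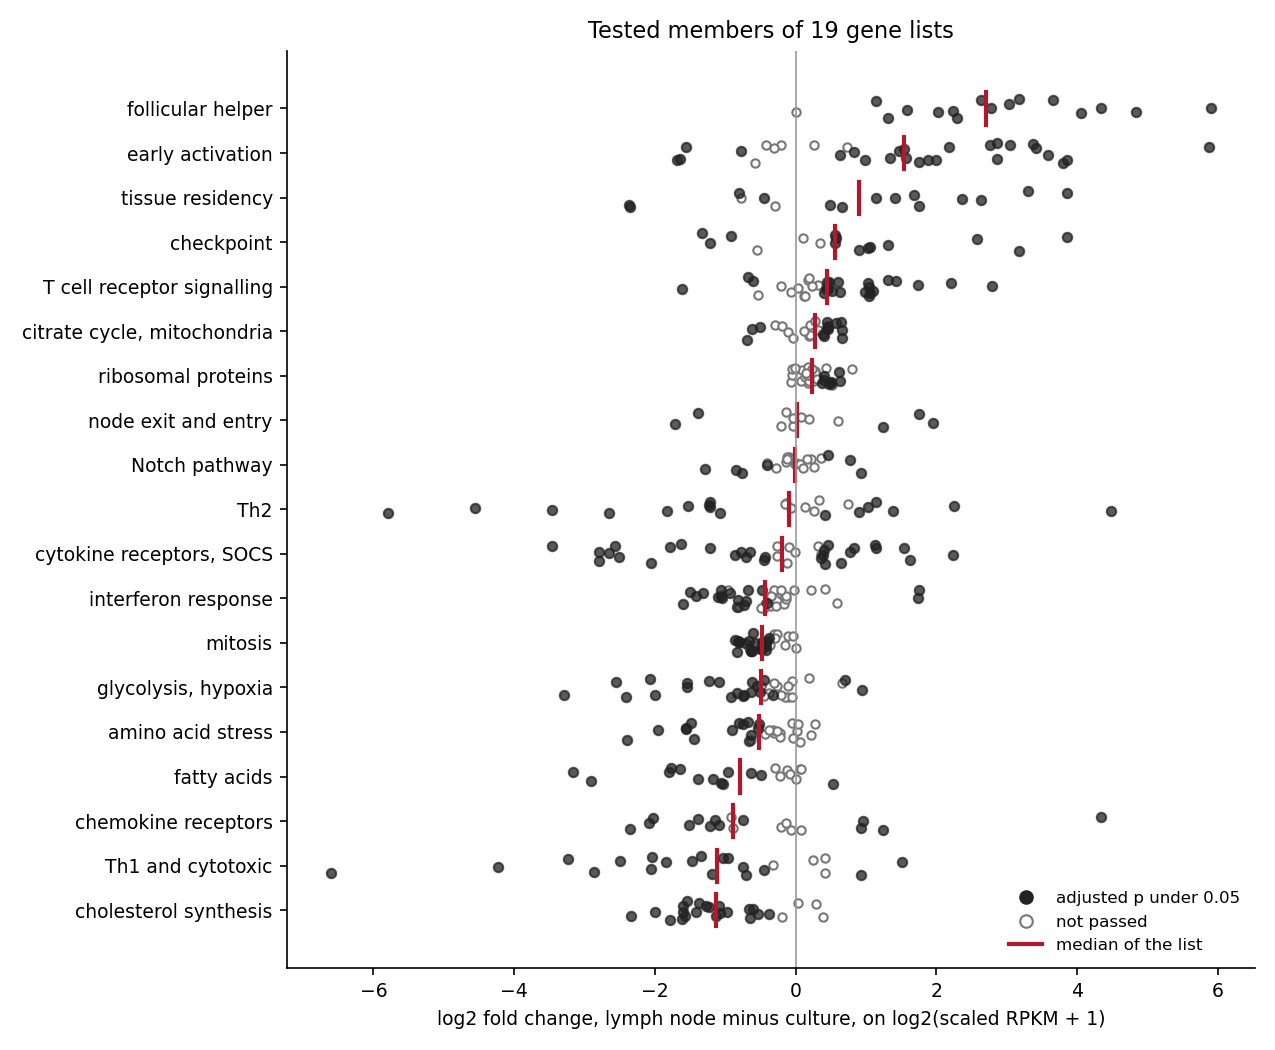
Log2 fold change of each tested member of 19 gene lists, lymph node minus culture. Filled points passed at an adjusted p under 0.05, open points did not, and red bars are list medians. Follicular helper genes have the highest median at 2.71 and cholesterol synthesis genes the lowest at -1.12.

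The same contrast was also measured in Notch1/2 knockout-labelled OTII cells, with 4 lymph node and 2 culture libraries that the wild type comparison does not use. The labels do not say in which cells the genes were deleted. Notch1 stood at 9.63, 7.60, 12.0 and 12.3 in their node libraries and 3.99 and 0.998 in their culture libraries, below all wild type values. Notch2 stood at 14.2, 13.4, 16.2 and 17.8 in the node and 6.76 and 6.27 in culture, and in the node that is above all wild type values, against the label. A level over the whole transcript does not show whether the deleted part is missing. The follicular helper and cholesterol genes differed in the same direction there. Of the follicular helper genes 15 were higher (median log2 fold change 2.51), and of the cholesterol genes 20 were lower (median -1.17). Izumo1r had a log2 fold change of 5.42, Gzma of -8.67 and Il4ra of -2.79. In all 3237 of 11168 genes passed (29.0%), with 1560 (14%) higher and 1677 (15%) lower. Of 10870 genes tested in both genotypes 3341 had passed in wild type, 3040 of these (91.0%) had the same sign in the knockout-labelled cells, and 1918 (57.4%) passed there in the same direction. Opposite calls were made in 42 genes. The counts of 1560 and 1677 were 863 and 677 without knockout-labelled culture library 1, and 737 and 707 without culture library 2.

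The difference of the contrast between genotypes was tested itself and passed in 444 of 11444 genes (3.88%), 174 (1.52%) with a more positive fold change in wild type and 270 (2.36%) with a more negative one. These counts were 83 and 116 without wild type culture library 1, 95 and 116 without knockout-labelled culture library 2, and 108 and 147 without wild type node library 3. Without wild type node library 2 they were 113 and 173, and with a replicate block by label number 54 and 84. Genes of exit and entry were among the former in 7 of 12 cases and the latter in 0. Klf2, S1pr1 and Ccr7 did not pass in wild type, and were lower in the node than in culture in knockout-labelled cells, at 22.5, 19.98, 28.7 and 19.4 against 91.4 and 102 for Klf2. The differences between genotypes were 2.66 for Klf2 (SE 0.43, adjusted p = 0.00656), 1.74 for S1pr1 (0.26, 0.00474) and 2.19 for Ccr7 (0.26, 0.00101). Dtx1 stood at 0.696, 0.717, 0.856 and 1.14 in the node and 0.0919 and 0.0126 in culture of knockout-labelled cells (difference between genotypes 4.31, adjusted p = 8.22e-06). Gata3 was lower in the node than in culture of knockout-labelled cells (log2 fold change -1.08, adjusted p = 4.26e-04), with a difference of 0.93 (adjusted p = 0.0183). Il9r had a larger excess in the node of knockout-labelled cells (53.7, 39.6, 51.8 and 54.5 against 1.14 and 0.756) than of wild type (difference -3.16, adjusted p = 4.85e-05). The call of Gata3 was lost without wild type culture library 1 (adjusted p = 0.0918) or either knockout-labelled culture library (0.0636 and 0.0690). The replicate block ended the calls of S1pr1 (adjusted p = 0.0580) and Gata3 (0.0766). For the follicular helper genes 1 of 16 differences passed (Pou2af1), and for the cholesterol genes 1 of 25 (Pmvk).

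**Figure D5:**
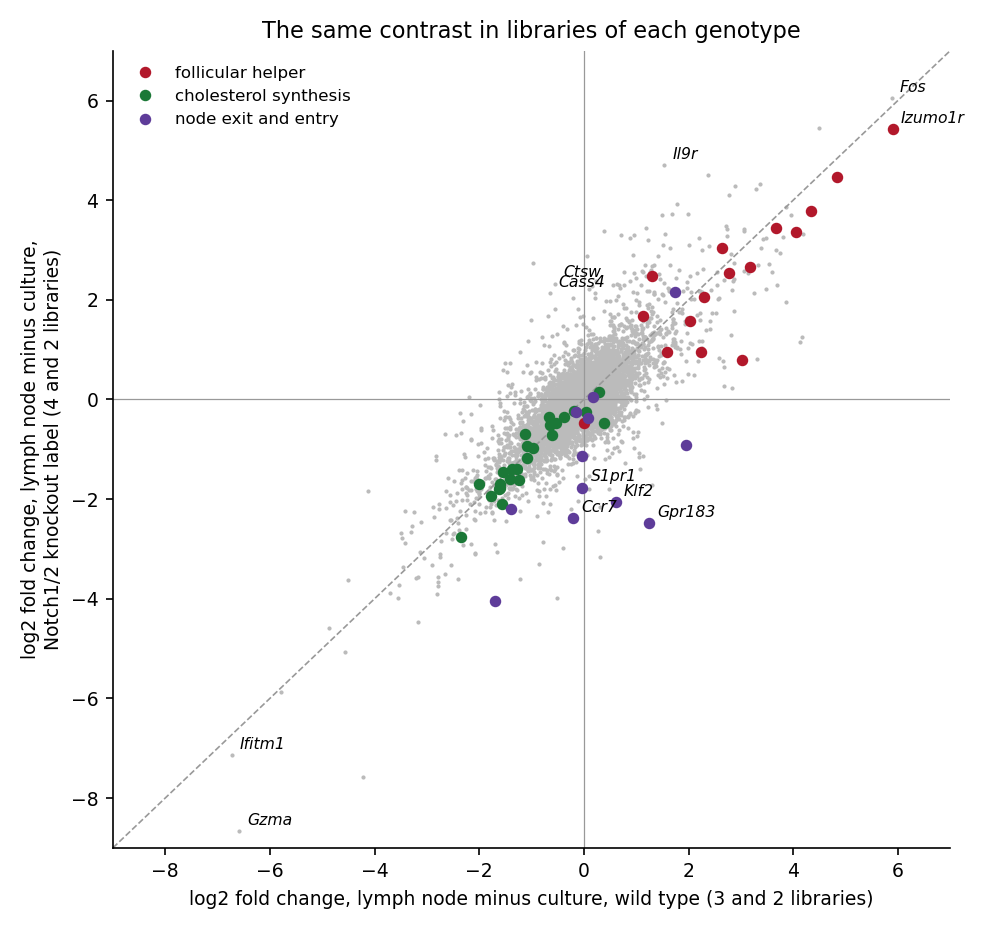
Log2 fold change, lymph node minus culture, in wild type (x axis) and knockout-labelled (y axis) libraries for each of the 10870 genes tested in both (grey points), with members of 3 lists coloured and a dashed line of equal values. Follicular helper and cholesterol genes lie near the line, and several genes of node exit and entry lie below it.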

How the data were processed

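RNA of sorted cells was sequenced after Smart-seq2 amplification, a full-length protocol for few cells. The authors' deposited files give RPKM per gene for each library, with 1 transcript a gene. The submitters' processing notes name HISAT2 2.0.4, HOMER, DESeq2 and the build mm10. In the deposited tables RPKM times transcript length gave whole multiples of 1 read (tolerance 0.1 of a read, values below 100 reads, transcripts under 3000 bases, 100% of values), from which the read totals were taken.

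Libraries were brought to 1 scale with median-of-ratios factors from the 9787 genes at 1 RPKM or more in all 11 OTII libraries. Limma 3.58.1 in R 4.3.3 (lmFit, eBayes with trend, no block) was applied to log2(scaled RPKM + 1). P-values are two-sided and were adjusted by Benjamini and Hochberg over every gene tested, with a threshold of 0.05. Genes entered at 1 RPKM or more in at least 2 libraries. The difference between genotypes was fitted over all 11 OTII libraries. The fit was tested on simulated data. Gene counts and figures were made with Python 3.11.15.

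The genes, the 37 gene lists, the 13 marker lists and the tests were chosen with earlier results of these data known. The genes named by rule were 20 fixed ones (Notch, Th2, trafficking and identity genes), the 10 highest and 10 lowest fold changes without overlap at a mean of at least 5, the 5 most abundant called genes in each direction, the 4 called members with the smallest p of each list with at least 2 calls, and the 8 smallest p for the difference between genotypes. Predicted genes, segments of antigen receptors, small or histone RNAs and pseudogenes were left out. Other genes were named after their values were seen. Some genes are counted in their lists and not reported by name here.

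Alternatives were RPKM as deposited, scaling over all 17 libraries, a pseudocount of 0.1, a filter at 5 RPKM or none, 1 fit over 4 groups, voom on the reads, a replicate block and leaving out each library. Added after the data were seen were a block by header number, an average of the 2 node libraries headed WT2, and a further threshold at 2-fold.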

Additional observations from a re-analysis of the deposited data

Results flagged for a closer look

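The difference of the node against culture contrast between genotypes, wild type minus knockout-labelled, was tested itself and passed for the genes given here, among others. It was positive, on the log2 scale, for Dtx1 (4.31), Gpr183 (3.73), Grhl1 (2.94), Dnase1l3 (2.69), Klf2 (2.66), Prag1 (2.65), Ccr7 (2.19), S1pr1 (1.74) and Gata3 (0.93). It was negative for Il9r (-3.16), Ctsw (-2.87), Cass4 (-2.79) and Notch2 (-1.05). With a replicate block by label number S1pr1 (adjusted p = 0.0580), Gata3 (0.0766) and Notch2 (0.122) no longer passed, and Gata3 did not pass without wild type culture library 1 (0.0918) or either knockout-labelled culture library (0.0636 and 0.0690). Grhl1, a transcription factor gene, stood at 12.4, 11.1 and 11.8 in the wild type node and 0.250 and 0.258 in wild type culture. Ctsw, which encodes a cathepsin of cytotoxic cells, stood at 55.8, 70.8 and 59.3 in the node and 95.3 and 85.8 in culture of wild type cells, and at 342, 244, 349 and 339.7 in the node and 65.7 and 58.6 in culture of knockout-labelled cells.

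In the knockout-labelled node group of 4 libraries, 1 library lay far from the other 3 for 6 genes. All 6 are among the 20 fixed genes or the 8 with the smallest p for the difference between genotypes. The share over all genes is not given here, so the 6 cannot be set against it. Library 2 was the one apart for Ctsw (243.9 RPKM), Il1rl1 (0.933), Il7r (85.2), Mki67 (140.7) and S1pr1 (35.2), and library 4 for Gzmb (1.10). Chance alone marks about 1 in 20 groups in this way, and genes set apart by the same library are not independent marks. Without library 2 the knockout-labelled contrast made 2040 calls upward and 2167 downward, against 1560 and 1677 with it.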

How the results depend on the processing

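With 3 and 2 libraries a group, the counts of calls follow single libraries more than the fold changes do. Leaving out 1 library at a time gave 894 to 2150 genes higher and 1259 to 2146 lower in wild type, 737 to 2040 and 677 to 2167 in knockout-labelled cells, and 83 to 225 and 116 to 352 for the difference between genotypes. With the 2 node libraries headed WT2 averaged, 969 were higher. Past 2-fold as well, the counts were 394 and 591. A replicate block by label number gave 1407 higher and 1759 lower in wild type, 957 and 991 in knockout-labelled cells, and 54 and 84 for the difference. A block by header number gave 1395 and 1801 in wild type. The labels do not say that the numbers pair libraries, and the deviations of same-numbered wild type libraries correlated at -0.006 and 0.319. Of 165 named genes called in wild type, 145 stayed called in each fit that left out 1 library, 9 lost the call under the block by label number, 18 with no filter and 15 with the WT2-headed libraries averaged. With no filter, the count higher was 0 for ribosomal proteins, 2 for MYC targets, 3 for chaperones and 3 for the cytoskeleton, and the count lower 13 for mitosis and 1 for replication. With the WT2-headed libraries averaged these counts were 4, 4, 3, 2, 13 and 0, and that of oxidative phosphorylation and of the citrate cycle was 4. Among the differences between genotypes that had passed for genes named by rule, the block took the call from several, including Gata3 (adjusted p = 0.0766), Notch2 (0.122) and S1pr1 (0.0580). Signs of named genes turned for 4 genes in wild type, none of which had passed. With 1 library left out, the log2 fold change ranged from -0.59 to 0.19 for Ccr7, -0.30 to 0.013 for Gata3, -0.32 to 0.26 for S1pr1 and -0.10 to 1.31 for Klf2. For the difference between genotypes it ranged from -0.83 to 0.0051 for Cd69 and from -0.10 to 0.23 for Mki67, and was -0.076 for Mki67 under the block. Neither had passed. The causes were not tested. RPKM as deposited, the other scaling, the pseudocount, both filters, 1 fit over 4 groups and voom turned no sign of a named gene in wild type.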

Other observations

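Node library 1, the one whose header carries the number WT1, stood apart from node libraries 2 and 3 in the genes given here. It was lowest for the protease genes Gzmb (23.1, 136 and 175 in libraries 1, 2 and 3) and Gzma (13.0, 40.6 and 40.3), for Ifitm1 (0.698, 5.10 and 4.64) and for Fos (52.0, 115 and 116), Fosb (2.50, 14.7 and 12.8) and Tnfaip3 (51.7, 124 and 93.9). The granule gene Prf1 (0.457, 0.220 and 0.300) and the early genes Egr2 (18.7, 15.1 and 16.5) and Egr3 (17.4, 16.1 and 15.9) were highest in it. It was highest for Cxcr5 (39.4, 18.1 and 22.4), Tox2 (44.2, 27.1 and 27.4), Bcl6 (22.8, 15.3 and 16.4) and Angptl2 (50.5, 30.6 and 30.0). The chemokine receptor gene Ccr2 (6.93, 13.3 and 15.3) and the homing receptor gene Gpr15 (0.323, 3.53 and 6.29) were lowest in it as well. These genes were chosen after their values were seen, and no test of the library was made.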
